A study of Oryctolagus cuniculus with 6 samples.

Results

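CTHRC1, COL22A1, LAMA1 and CHSY1 are 4 genes that build or modify the extracellular matrix, and they were read here in rabbit ear scars. They were taken by symbol from a table of mRNA transcripts that the authors had deposited, and each symbol matched 1 transcript, so 4 of 421 listed transcripts are described. The scars came from 6 female New Zealand White rabbits with full-thickness wounds on the ventral face of the ears, and the RNA was sequenced at day 21. The 3 control rabbits received saline. The 3 ADSC-Exos rabbits received ADSC-Exos, vesicles released by stem cells of fat tissue, in a dose of 100 µg per 2 ml. All rabbits had antibiotics and analgesics after surgery and were assigned to their arm at random, and each replicate is 1 animal. The series text limits the application to the first 3 days and the sample labels give 21 days, which the sources used here do not settle. A rabbit carried several wounds, and the sources used here do not say how they entered its library.

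Scar tissue is mostly extracellular matrix. Fibroblasts and myofibroblasts secrete its fibrillar collagens, other collagens link those fibrils to neighbouring structures, laminins form the sheet under epithelia and around muscle, nerve and fat cells, and proteoglycans carry chondroitin sulphate chains that hold water and bind growth factors. CTHRC1 encodes a secreted glycoprotein with a short collagen-like stretch that injured and fibrotic tissue makes and that binds Wnt and Frizzled proteins. COL22A1 encodes a collagen of tissue junctions, best known where muscle meets tendon. LAMA1 encodes the alpha chain of laminin-111, a basement membrane laminin best known from the embryo. CHSY1 encodes a Golgi enzyme that lengthens the chondroitin sulphate chains of proteoglycans.

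The table holds a selection. Every listed mRNA had an absolute log2 fold change above 1 and a p-value below 0.05 in the authors' comparison of these same rabbits, so the difference between arms was in effect used to choose the rows and is given here as a description. Of the listed mRNAs, 242 averaged higher in ADSC-Exos scars and 179 lower. ADSC-Exos rabbit 1 stood apart from the other treated rabbits in the higher mRNAs: over these 242 its median distance from the control mean was 0.42 on the log2 scale, against 2.14 in rabbit 2 and 2.13 in rabbit 3. Over the 179 lower mRNAs the medians were closer, at -1.42, -1.95 and -1.67 in treated rabbits 1, 2 and 3. Rabbit 1 was the least changed of its arm in 83.9% of the higher and 41.9% of the lower mRNAs. Its reads in these same listed mRNAs summed to 86844, the fewest, where the other rabbits had between 100758 and 224554. Its low values in the higher mRNAs enter that sum, which is not a measure of library depth. The size factor of treated rabbit 1, the divisor that normalizes reads, was 1.006, against 0.988 and 0.981 in treated rabbits 2 and 3. Library totals are not known. Values are given with and without that rabbit below. Each gene is represented by the single transcript listed for it, and its further transcripts were not analysed here. In whole tissue, fewer cells of a type and less RNA per cell cannot be told apart.

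The 4 genes divided into a pair with high values in treated rabbits 2 and 3, CTHRC1 and COL22A1, and a pair that was lower in treated scars, LAMA1 and CHSY1. COL22A1 was the one called in the authors' deposited table at an FDR (p adjusted for all features tested) below 0.05, with an FDR of 0.046. That is 1 of 4, where the same call was made for 11.6% of listed mRNAs, 5.23% higher and 6.41% lower. LAMA1 lay just outside at an FDR of 0.0503, CHSY1 was at 0.356 and CTHRC1 at 0.525. The arms did not overlap for LAMA1 and CHSY1, so for 2 of 4, both lower, against 53.7% of listed mRNAs, with 28.3% of the listed mRNAs separate and lower.

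**Figure D1:**
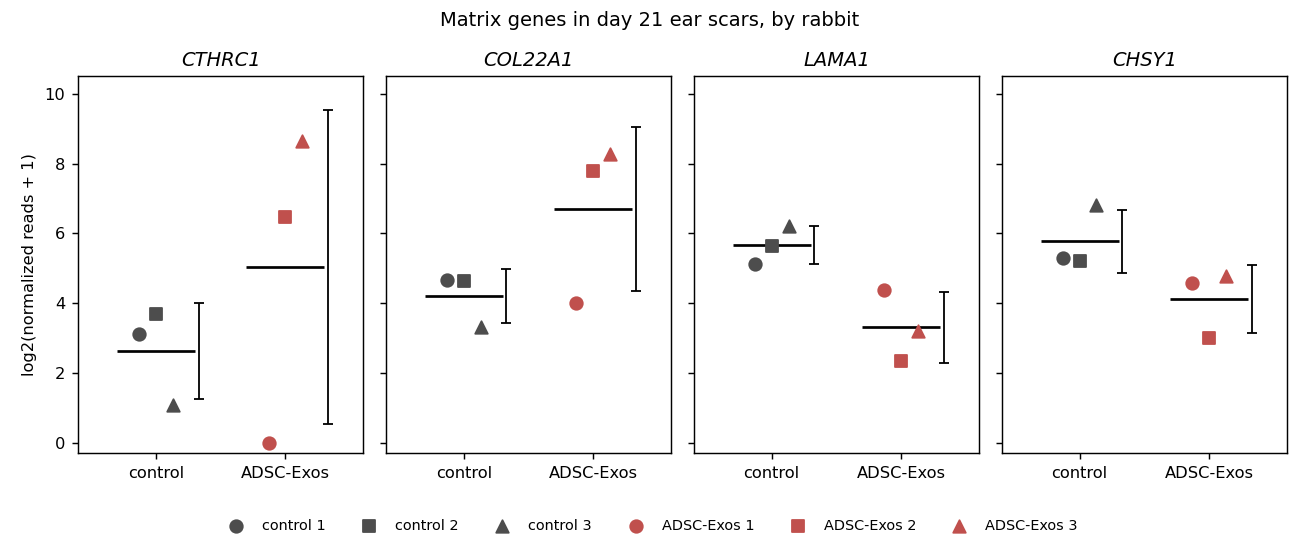
Each panel plots log2(normalized reads + 1) of 1 gene in the 3 control (grey) and 3 ADSC-Exos (red) rabbits, the marker shape giving the rabbit number, the horizontal bar the arm mean and the whisker its SD. CTHRC1 runs from 0 to 8.65 within the treated arm, while for LAMA1 and CHSY1 all treated rabbits sit below all controls.

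Reads of CTHRC1 numbered 9, 12 and 1 in controls 1, 2 and 3, against 0, 87 and 394 in ADSC-Exos rabbits 1, 2 and 3. Treated rabbit 1 was therefore the lowest of all 6, treated rabbits 2 and 3 were above every control, and the arms overlapped. The count of 0 allows up to 3 reads, and the 95% Poisson interval for the 87 reads of treated rabbit 2 starts at 69.7, so treated rabbits differed from each other by more than counting error. On the scale of normalized reads, which are reads divided by the library's size factor, the CTHRC1 mean was 6.91 ± 5.47 for controls and 163.3 ± 211.2 for ADSC-Exos rabbits (SD, n = 3 each). As log2(normalized reads + 1) the arms were at 2.63 ± 1.37 and 5.04 ± 4.50. The difference of 2.41 (SE 2.72) was smaller than its own error.

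The spread of CTHRC1 among treated rabbits was among the widest in the table. Its SD of 4.50 ranked 10 of the 326 listed mRNAs with a mean of at least 10 normalized reads, whose median SD in the treated arm was 0.91. With a control mean of 6.91 and 0 in treated rabbit 1, CTHRC1 met that level only through treated rabbits 2 and 3. The same values widen its SD, so the rank is a description. The log2 difference was 4.93 without treated rabbit 1 and 0.61 without treated rabbit 3. An exact permutation test over rabbits, two-sided, gave p = 0.5 for CTHRC1, where 3 against 3 rabbits cannot go below 0.1. The 95% limma interval of the difference ran from -2.30 to 7.12 and so held 0.

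Reads of COL22A1 numbered 29, 24 and 8 in the controls, against 15, 219 and 305 in ADSC-Exos rabbits 1, 2 and 3. Treated rabbit 1 lay inside the control range, and treated rabbits 2 and 3 lay far above it. The Poisson interval for the 15 reads of treated rabbit 1, from 8.40 to 24.7, held the reads of control rabbit 2, whereas the interval for treated rabbit 2 began at 191.0. The COL22A1 mean was 19.2 ± 8.81 normalized reads for controls and 182.5 ± 151.9 for ADSC-Exos rabbits, a ratio of means of 9.53. Without treated rabbit 1 the treated mean was 266.3 normalized reads, 13.9 times the control mean.

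On the log2 scale COL22A1 was at 4.21 ± 0.77 in control and 6.69 ± 2.35 in treated scars, a difference of 2.48 (SE 1.43). Leaving out treated rabbit 1 raised that difference to 3.83, and leaving out treated rabbit 3 gave 1.68. The exact permutation p, two-sided, was 0.3, and the limma interval ran from -0.05 to 5.01. Limma's adjusted p was 1 over all transcripts tested, an adjustment that can be too strict because unlisted transcripts were given a p of 1. COL22A1 was thus not called by limma, where its unadjusted p was 0.054. The adjusted value does not test the call in the authors' deposited table. Among the 195 listed mRNAs that averaged higher and had a mean of at least 10 normalized reads, the differences of COL22A1 and CTHRC1 ranked 28 and 29. CTHRC1 met that level only through treated rabbits 2 and 3, which also set its difference.

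For LAMA1 the controls had 40, 49 and 65 reads, against 20, 4 and 8 in ADSC-Exos rabbits 1, 2 and 3. Every treated rabbit was below every control, and treated rabbit 1 was the nearest to the controls. Normalized reads of LAMA1 averaged 51.9 ± 19.8 over controls and 10.7 ± 8.21 over treated rabbits, so the control mean was 4.86 times the treated mean. Without treated rabbit 1 that ratio was 8.51. The log2 values were 5.66 ± 0.54 and 3.30 ± 1.03, a difference of -2.35 (SE 0.67), and with any 1 rabbit left out the difference stayed between -2.89 and -1.87.

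Of the 4 genes, LAMA1 had the difference that was largest beside its error. Its limma interval ran from -3.86 to -0.85 and did not hold 0, its adjusted p by limma was 1 over all transcripts tested, and its exact permutation p, two-sided, was 0.1, the smallest that 3 against 3 rabbits allow. Adjusted over the listed mRNAs alone, limma's p was 0.088 for LAMA1, 0.106 for CHSY1, 0.109 for COL22A1 and 0.272 for CTHRC1. Those rows were chosen on this same contrast, so these 4 values are no valid FDR. The depth is low. The Poisson interval for treated rabbit 1 (20 reads) reached 30.9 and that of control rabbit 1 (40 reads) began at 28.6, so the intervals of the nearest treated and control rabbits overlapped. The interval for treated rabbit 2 ended at 10.2.

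For CHSY1 the controls had 45, 36 and 99 reads, against 23, 7 and 26 in ADSC-Exos rabbits 1, 2 and 3. Control rabbit 3 was the highest and treated rabbit 2 the lowest, and the arms were separate with a narrow gap: treated rabbit 3 was at 4.78 and control rabbit 2 at 5.21 on the log2 scale. Normalized reads of CHSY1 averaged 61.8 ± 42.9 over controls and 18.8 ± 10.3 over treated rabbits, a control mean 3.28 times the treated mean. The log2 values were 5.77 ± 0.90 and 4.12 ± 0.97, a difference of -1.64 (SE 0.76).

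The CHSY1 difference leaned on the extreme rabbit of each arm. It was -1.09 without treated rabbit 2, -1.12 without control rabbit 3, and -1.87 without treated rabbit 1. The limma interval ran from -3.24 to -0.04, the adjusted p by limma was 1, and the exact permutation p, two-sided, was 0.1. For this gene treated rabbit 1 was not the least changed of its arm: its distance from the control mean was -1.19, against -0.99 in treated rabbit 3 and -2.75 in treated rabbit 2.

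**Figure D2:**
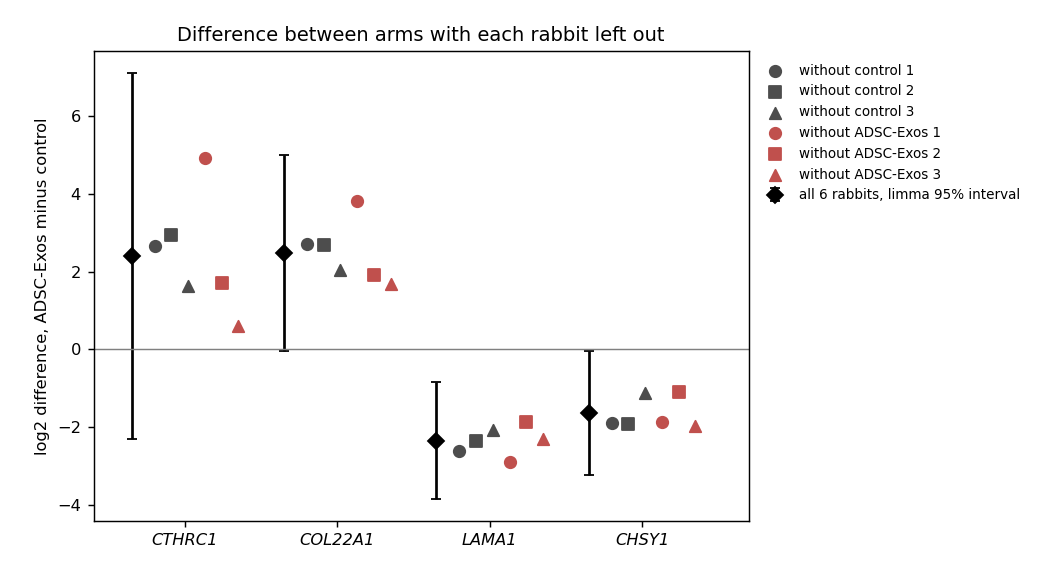
The vertical axis is the log2 difference, ADSC-Exos minus control, of each gene: black diamonds use all 6 rabbits with limma's 95% interval, and the other markers leave out 1 control (grey) or 1 treated (red) rabbit. CTHRC1 moves between 0.61 and 4.93, whereas LAMA1 stays between -2.89 and -1.87.

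None of the 4 genes passed limma with Benjamini-Hochberg adjustment over the transcripts tested, and neither did any of the 421 listed mRNAs (0%). At an unadjusted limma p below 0.05 there were 2 of the 4, LAMA1 at 0.0069 and CHSY1 at 0.045, beside 193 of 421 listed mRNAs (45.8%; 23.5% lower). COL22A1 was at 0.054 and CTHRC1 at 0.27. LAMA1 stayed below 0.05 with any 1 rabbit left out, whereas CHSY1 was above it in 5 of those 6 fits, up to 0.163, and at 0.058 without limma's trend and robust options. COL22A1 was at 0.042 with a filter at a mean of 10 normalized reads in the higher arm and at 0.048 with a pseudocount of 10. Without ADSC-Exos rabbit 1 the count over the table was 311, and COL22A1 and CTHRC1 reached unadjusted limma p-values of 0.00057 and 0.0036 while CHSY1 was at 0.054. The adjusted limma p-values of that fit were 0.277 for COL22A1 and 0.518 for CTHRC1. Rabbit 1 was singled out by its low values in the higher mRNAs, which include both genes, so p-values without it are a description. The count over the table was 94 and 117 without control rabbits 2 and 3, and 101 and 97 without treated rabbits 2 and 3.

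**Figure D3:**
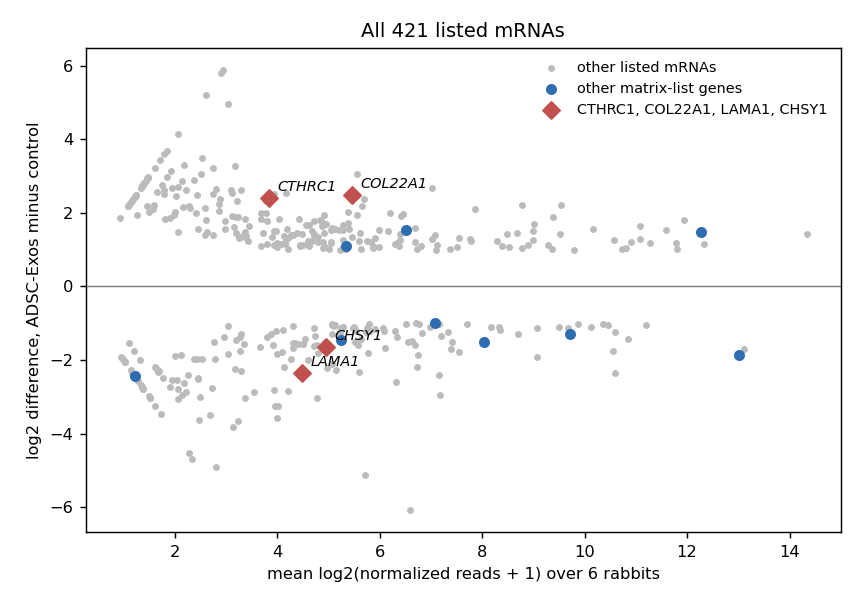
Each point is 1 of the 421 listed mRNAs, placed by its mean log2(normalized reads + 1) over 6 rabbits and by its log2 difference, ADSC-Exos minus control; red diamonds are the 4 genes and blue points the other genes of the matrix lists. The empty band around 0 is the authors' selection, and the 4 genes lie within the cloud of other listed mRNAs of like level.

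The ratio of reads of a pair of genes within a rabbit does not depend on the library's size factor. The log2 ratio of COL22A1 to LAMA1 reads was -0.46, -1.03 and -3.02 in control rabbits 1, 2 and 3. It was -0.42 in treated rabbit 1 and 5.77 and 5.25 in treated rabbits 2 and 3. Treated rabbit 1 was thus beside control rabbit 1, and the other treated rabbits were far above every control. COL22A1 was listed as higher and LAMA1 as lower on this same contrast, so a shift of their ratio between arms restates the selection. Of all pairs of the 4 genes this one had the largest shift between arm means, 5.04. For LAMA1 to CHSY1 the ratio was -0.17, 0.44 and -0.61 in controls and -0.20, -0.81 and -1.70 in treated rabbits, so the pair of lower genes kept a similar proportion in treated rabbit 1 and in the controls, and the ratio was lower in treated rabbits 2 and 3, where it rests on 4 to 26 reads a gene.

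Over the 6 rabbits the log2 values of CTHRC1 and COL22A1 had a Pearson correlation of 0.95, and those of LAMA1 and CHSY1 one of 0.89. COL22A1 and LAMA1 were at -0.89, COL22A1 and CHSY1 at -0.70, CTHRC1 and LAMA1 at -0.70 and CTHRC1 and CHSY1 at -0.49. All rows were selected on the same contrast of these libraries, which by itself makes rows of 1 direction run together, so the values describe the pattern and no more.

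The listed mRNA most like CTHRC1, among 255 with a symbol and a mean of at least 10 normalized reads, was COL22A1. It was followed by FAM71A at 0.94 and SLC6A11, a GABA transporter gene, also at 0.94. Most like COL22A1 were LGALS4 (galectin-4) at 0.99, RXFP4, a receptor of the relaxin family, at 0.98 and KLHL35 at 0.98. For LAMA1 they were IGDCC4, the amino acid transporter gene SLC7A10 and the aquaporin gene AQP8, at 0.99, 0.99 and 0.98. For CHSY1 they were the anion transporter gene SLC26A9 at 0.95, GALNT14, which starts mucin-type sugar chains, at 0.94 and ALPK2 at 0.94. A correlation above 0.9 was met by 50 of the 255 mRNAs with COL22A1, 26 with LAMA1, 11 with CTHRC1 and 8 with CHSY1.

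Beyond the 4 genes, 9 other genes of the matrix lists were listed. The 11 matrix lists held 331 genes, of which 13 were listed, 5 higher and 8 lower. Over all features, 421 mRNAs and 133 lncRNAs were listed of the 17743 transcripts tested. How many of the 331 genes were tested is not known, and 100 listed mRNAs carried no symbol and could match no list. The 13 had a median log2 difference of -1.30, or -1.01 with the 1 gene silent in an arm set at its bound. Over all listed mRNAs the median was 1.12, or 1.11 with such genes at their bound. The selection left no listed difference between -1 and 1, so each median falls on the side with more rows. The 2 medians thus restate that 8 of 13 and 179 of 421 were lower and do not measure a shift. Of the 13, 2 were called in the authors' deposited table, COL22A1 higher and COL10A1 lower, beside 11.6% of all listed mRNAs. Arms that did not overlap were seen for 6 of the 13, all of them lower, beside 53.7% of listed mRNAs. Among lower rows alone that is 6 of 8, beside 119 of the 179 lower mRNAs, which are 28.3% of all 421. At an unadjusted limma p below 0.05 there were 5 of 13, all lower, beside 45.8% of listed mRNAs. Among lower rows alone that is 5 of 8, beside 99 of the 179 lower mRNAs, which are 23.5% of all 421. The matrix list count of 5 was 11 without treated rabbit 1 and 2 without control rabbit 2, control rabbit 3 or treated rabbit 2. Of the fibrillar collagen list and the integrin and matrix receptor list, 0 genes were among the listed mRNAs, so their levels were not analysed here.

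Among the other collagens, COL10A1, the collagen of hypertrophic cartilage, was the best-counted of the listed matrix genes, at 9839, 21189 and 19883 reads in control and 5840, 2686 and 4949 in treated rabbits. It was lower in every treated rabbit than in every control, as LAMA1 and CHSY1 were, with a difference of -1.88 (SE 0.57) and an FDR of 0.0017 in the authors' deposited table. Of the 20 laminin and basement membrane genes, LAMA1 was the one listed. Of the 48 glycosaminoglycan synthesis genes, CHSY1 was the one listed. The list for collagen processing and crosslinking held 30 genes, and the one listed was CTHRC1, a secreted glycoprotein.

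The proteoglycan cores listed were EPYC and GPC5. EPYC, a small leucine-rich proteoglycan of cartilage, was at 8.79 ± 1.11 in control and 7.27 ± 1.07 in treated scars, with overlapping arms. GPC5, a cell surface heparan sulphate proteoglycan, was counted 5, 3 and 6 times in the controls and 0 times in every treated rabbit, at least 1.54-fold lower when 3 reads are allowed in each treated rabbit. HPSE, the enzyme that cuts heparan sulphate, and HPSE2, its inactive relative, differed by -1.01 (SE 0.48) and -1.47 (SE 0.62). Neither was called in the authors' deposited table, and the HPSE arms overlapped. MMP27, a matrix metalloproteinase, differed by -1.30 (SE 0.55), with arms that did not overlap.

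The genes that averaged higher beside CTHRC1 and COL22A1 were CYR61, a matricellular protein that binds integrins, MMP12, the macrophage elastase, and NOX4, an oxidase induced by TGF-beta. CYR61 was counted 2244, 3681 and 3339 times in controls, against 3379, 13346 and 12176 times in treated rabbits, a difference of 1.48 (SE 0.73). MMP12 differed by 1.55 (SE 1.21), and by 0.49 without treated rabbit 2 and 2.36 without treated rabbit 1. NOX4 differed by 1.09 (SE 0.89), and by 0.41 without treated rabbit 3 and 1.91 without treated rabbit 1. The authors' deposited table called none of these 3.

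All 5 higher genes of the matrix lists, with NOX4 from the TGF-beta list among them, had the same treated rabbit at the bottom. Rabbit 1 was the lowest of its arm and did not exceed the highest control, while rabbits 2 and 3 both did. Over the 242 listed mRNAs that averaged higher, 119 (49.2%) had this pattern. Of the 8 lower matrix genes 1, HPSE, had its counterpart, with rabbit 1 not past the controls and rabbits 2 and 3 past them, against 9.50% of the 179 lower mRNAs.

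**Figure D4:**
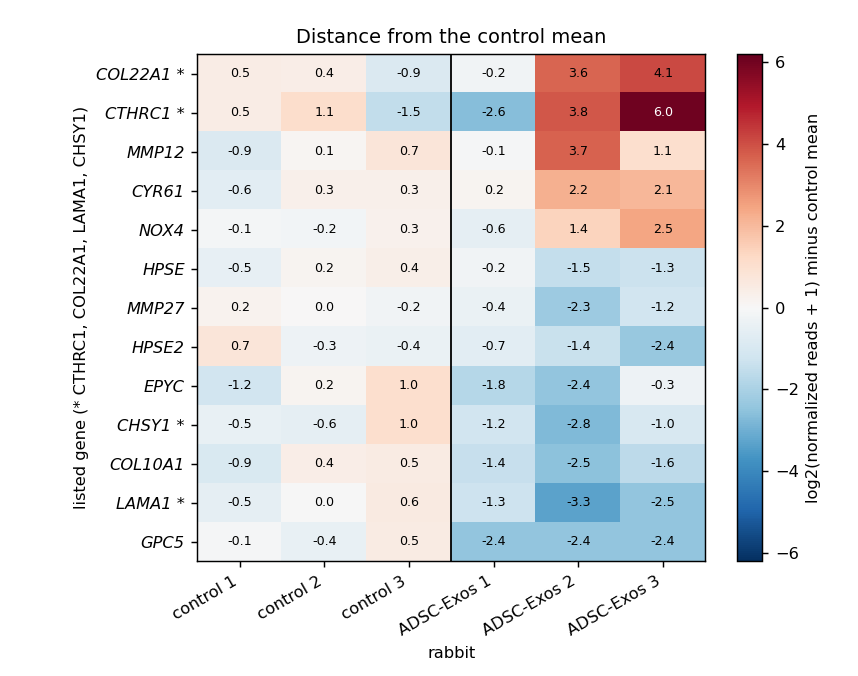
Rows are the 13 listed genes of the matrix lists and columns the 6 rabbits; numbers and colours give log2(normalized reads + 1) minus the control mean of that gene, and asterisks mark CTHRC1, COL22A1, LAMA1 and CHSY1. In the upper 5 rows ADSC-Exos rabbits 2 and 3 are above every control and rabbit 1 is not above the highest control, while most lower rows are blue in all treated rabbits.

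Markers of other cell types were read from the same selected table and are given as summed normalized reads of the listed markers. The skeletal muscle list, which bears on the muscle-tendon collagen COL22A1, had 2 of 21 markers listed, MYH1 and MYH7, whose sum ran from 7.87 to 246.9 in controls and from 3.98 to 8.16 in treated rabbits. Sarcomere genes outside that list, such as ACTC1, MYL2, TNNT2 and NRAP, were also among the listed mRNAs and were not summed here. MYH7 was at 0 in treated rabbit 1. The muscle sum was low in all treated rabbits and, at 7.87, in control rabbit 3, while COL22A1 was high in treated rabbits 2 and 3 and low in treated rabbit 1 and control rabbit 3. The cartilage list had 3 of 14 listed, with sums from 8541 to 23278 in controls and from 2907 to 5979 in treated rabbits. That sum is nearly all COL10A1, and 2 of the 3 averaged lower, while SCRG1 averaged higher, at 34.3 normalized reads in control and 87.0 in treated scars, with arms that did not overlap. The macrophage list had 3 of 12, from 100.5 to 210.2 and from 203.7 to 1767. These lists do not separate cell number from expression, and their part in the values of the 4 genes was not tested.

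Listed Schwann cell markers (2 of 10) summed to between 1567 and 2397 in controls and between 495.9 and 1587 in treated rabbits. The adipocyte list had 1 of 8, SLC7A10, at 67.6 to 152.8 in controls and 13.2 to 33.8 in treated rabbits, and it was the same transcript that ran with LAMA1. The sebaceous gland list had 1 of 10, MC5R, at 219.7 to 360.8 and 49.7 to 145.8. The erythrocyte list had 4 of 11 genes, with sums from 9746 to 37492 in controls and from 3668 to 6955 in treated rabbits. Keratinocyte markers (2 of 20 genes) overlapped, at 1124 to 3166 and 1443 to 6217, and went both ways: TGM5 differed by 1.21 and the S100A8 transcripts by -1.15 and -1.34. The myofibroblast list had 1 of 10 listed, CTHRC1 itself. The fibroblast (12 genes), endothelium (10) and T cell (10) lists had 0 listed markers, so the cells that make most scar matrix could not be followed by the markers of these lists. The lists are not complete: the T cell genes CD96, LAG3 and TRAT1, outside the T cell list, were among the listed mRNAs and were not summed.

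None of the 4 genes hosted a listed circular RNA: 0 of 1694 circRNAs carried their symbols. Of the 133 listed lncRNAs, 69 were annotated in the authors' table with a coding transcript within 3 kb, and for 0 of them was it a transcript of the 4 genes. Genes of the matrix lists hosted 36 listed circRNAs from 22 genes, 18 higher and 18 lower, with 2 to 20 reads each over all rabbits. The circRNA table is a selection too: no listed circRNA had an absolute log2 fold change below 1.01 in the authors' comparison, so its counts and p-values are a description. Limma adjusted over the circRNA table called 0 of the 36, and 5 had an unadjusted p below 0.05, beside 0.118% and 16.7% of all listed circRNAs. Those 5 had 4 to 9 reads each, and their p-values in the authors' comparison ran from 0.173 to 0.421. LAMA2, the alpha chain of the laminin of muscle and nerve sheaths, hosted 4 of the 36 on chromosome 12, which were singled out after their values were seen. Together they had 0 reads in controls, 0 in treated rabbit 1, and 6 and 8 in treated rabbits 2 and 3. The best-counted, annotated as exonic, spans 118995991 to 119003439 in the coordinates of the authors' table, whose genome build the sources used here do not name.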

How the data were processed

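Scar RNA of 6 rabbits, 3 in each arm, was analysed from the tables the authors deposited. The deposited values are on a log2 scale, as log2(normalized reads + 1), where normalized means divided by the library's size factor: 2 to the power of the value, minus 1, gave whole multiples of 1 step within 0.01 for 100% of values. Size factors of the mRNA table ran from 0.890 to 1.18. The deposited p-values and FDR come from a comparison for which the test and the genome build are not given in the sources used here. The submitters' processing notes name STAR 2.7.6a, HTSeq 2.0.3, DESeq2 1.30.1, Trimmomatic 0.40 and FastQC 1.0.0 without roles. Under R 4.3.3, limma 3.58.1 with its trend and robust options was fitted to all 421 mRNAs and, separately, to the circRNAs. The mRNA adjustment was over 17743 transcripts, the number that the deposited FDR to p ratios fit (53.4% at a whole rank within 0.0001), with unlisted transcripts given a p of 1, which can be too strict. The circRNA adjustment was over the table, itself a selection on fold change. The limma script was also run on simulated counts, with low means raised and no selection of rows. That run checks the code and does not cover selected genes counted as thinly as these 4. SEs of differences come from the SDs of both arms. Intervals are 95% and, for reads, cover counting error only.

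The 4 genes, the gene lists (11 for matrix, 12 for cell types) and the tests were chosen with earlier results of these data known. The named genes are the 4 genes, listed genes of those lists, circRNAs of matrix genes, and the 3 mRNAs most correlated with each gene. The tables used here give mRNAs and lncRNAs no coordinates, so nearby lncRNAs were taken from the authors' annotation within 3 kb. Column names carry 1 date tag, so no batch was visible. Sequences were not used here. Alternatives were another scaling, pseudocount, filter and limma setting, a replicate block and each rabbit left out.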

Additional observations from a re-analysis of the deposited data

How the results depend on the processing

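The tables are a selection and the 4 genes are thinly counted, with 186 to 600 reads each over all rabbits, so these settings test the stability of selected rows. For the 4 genes, 0 of the 52 refits changed the sign of a difference or passed the adjusted threshold. The refits with a filter, with other limma options or with a replicate block leave the difference as it is, so they could not change its sign. Passing was hard in any refit, because unlisted transcripts were given a p of 1. The count of 52 is therefore no measure of stability. With 1 rabbit left out the log2 difference ran from 0.61 to 4.93 for CTHRC1, from 1.68 to 3.83 for COL22A1, from -2.89 to -1.87 for LAMA1 and from -1.97 to -1.09 for CHSY1. A pseudocount of 0.1 gave 1.65 for CTHRC1 and a pseudocount of 10 gave -1.61 for LAMA1. Limma's count of adjusted mRNA calls, 0 in the main setting, was 0 to 2 with 1 rabbit left out, the 2 without ADSC-Exos rabbit 1. It was 3 when adjusted over the listed mRNAs alone, a smaller number of tests and a set chosen on this same contrast. The count at an unadjusted p below 0.05, 193, was 127 with a filter at a mean of 10 normalized reads in the higher arm, which leaves fewer mRNAs, and 94 to 311 with 1 rabbit left out. The matrix list count of 5 was 2 to 11 with 1 rabbit left out. The other causes were not tested. No filter is the main setting. With the replicate block the differences were the same, 0 mRNAs passed the adjusted threshold and 169 had an unadjusted p below 0.05. Deviations of same-numbered rabbits correlated between -0.025 and 0.014, which is no sign of pairing by number. Count tests were not run on log2 values.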

Other observations

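The deposited table annotates 239 of its 421 mRNAs with a Gene Ontology cellular component. A component naming the extracellular matrix or the basement membrane was given to 9 of them, 3 higher and 6 lower, and the authors' deposited table called 1 of the 9, COL10A1, beside 11.6% of all listed mRNAs. LAMA1 was the one of the 4 genes among them. TECTB, a matrix protein known from the inner ear, and CDH8, a cadherin, carried the annotation and were on none of the matrix lists. TECTB was at 1.82, 2.00 and 2.46 in control rabbits and at 2.31, 4.92 and 4.35 in ADSC-Exos rabbits on the log2 scale. Its treated rabbits 2 and 3 were above every control and its treated rabbit 1 was not. CDH8 was at 7.14, 7.55 and 7.75 in control and 6.68, 4.41 and 6.55 in treated rabbits, lower in every treated rabbit than in every control. This annotation was looked at after the values had been seen.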
